A study of Mus musculus with 4 samples.

Results

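The nuclear-encoded genes of oxidative phosphorylation were followed through 4 single-cell RNA libraries of phagocytes sorted from mouse hearts. Members were taken by gene symbol alone. The symbols start with Ndufa, Ndufb, Ndufc, Ndufs, Ndufv, Uqcr, Cox4, Cox5, Cox6, Cox7, Cox8 or Atp5, or are Sdha, Sdhb, Sdhc, Sdhd, Cycs or Cyc1, with Gm models and pseudogenes left out. This gave 95 of the 32285 genes listed, after 1 pseudogene was dropped. Of these, 86 encode subunits or carriers, with 36 in complex I, 4 in complex II, 9 in complex III, 1 for cytochrome c, 19 in complex IV and 17 in complex V. The other 9 are assembly factors, Ndufaf1 to Ndufaf8 and Cox7a2l, and were kept apart. No measured value entered the choice.

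Complexes I and II of the inner mitochondrial membrane take electrons from NADH and succinate, complex III passes them to cytochrome c, and complex IV hands them to oxygen. Complexes I, III and IV pump protons, and complex V, the ATP synthase, lets them flow back to make ATP. Most subunits come from nuclear genes, while a small core is encoded by mitochondrial DNA, except in complex II, which is wholly nuclear. Heart muscle depends on this pathway and holds muscle isoforms of several complex IV subunits, whereas macrophages shift between respiration and glycolysis as they are activated.

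The study combined an earlier chemotherapy with a later pressor infusion, with 1 library per group. The carboplatin AngII/PE mice had 45 mg/kg carboplatin intraperitoneally 2 times a week for 2 weeks, 4 weeks of recovery, and then a minipump that gave angiotensin II at 1.5 mg/kg/day and PE at 50 mg/kg/day for 7 days. The PBS AngII/PE mice had PBS in place of carboplatin, the carboplatin saline mice had saline in the pump, and the PBS saline mice had PBS and saline. All groups had the same recovery and pump time. Each library held cells of 5 adult mice of mixed sex, sorted as CD64+, CD45+ and CD11b+, negative for Ly6G and low for Ly6C. The strain was not given in the sources used here. Since no group had a second library, no difference between conditions could be tested. Intervals given with levels and ratios are exact 95% intervals of counting error only, and they do not cover the variation between mice.

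The libraries held 8012, 5997, 7049 and 6910 barcodes in the order carboplatin AngII/PE, PBS AngII/PE, carboplatin saline and PBS saline. Of these, 5669, 3849, 3484 and 4310 cells passed the submitters' filters, with median depths of 10593 to 12737 UMIs. The libraries shared 9 to 17 barcodes per pair, of which 1 to 10 were kept cells in both. Cells called macrophage-like from their markers numbered 3928, 2147, 1011 and 1935 and are the class in which conditions were compared. All 9 cardiomyocyte markers were above 0 in them, with summed levels of 86.9, 97.3, 125 and 147 CPM, lower under AngII/PE. All 7 fibroblast markers were above 0 too, with summed levels of 298, 266, 167 and 127 CPM, higher under AngII/PE as the subunits were, and their part in the results was not tested. Cells were called female or male from their own transcripts. Macrophage-like cells called female and male numbered 1629 and 1660, 532 and 1306, 478 and 388, and 677 and 831 in the same order of libraries. Male-called cells thus outnumbered female-called ones most in the PBS AngII/PE library. Female-called and male-called cells held 13712 and 14394, 13427 and 14203, 11608 and 11133, and 11137 and 11437 CPM of subunits. Ratios within each called sex are given further on. In single genes the PBS saline library stood apart. Between its male-called and female-called macrophage-like cells 3698 of 8491 genes lay at least 1.2-fold apart, against 1235 to 1421 in the other libraries, although resident-like cells made up 91.6% and 90.5% of them. Of 79 subunits, 62 lay above 0 on the log2 scale in both called sexes for AngII/PE over saline after PBS and 4 below 0 in both, with the sexes of the rest on opposite sides. Values within each sex are given for some members that rest on this library.

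The 79 subunit genes that averaged at least 10 CPM in macrophage-like cells had a median level of 135 CPM and a range of 10.7 to 596 CPM. The remaining 7 were Cox4i2, Cox6b2, Cox7a1, Cox7b2, Cox8b, Cox8c and Ndufa4l2, all of complex IV, and Cox7b2 and Cox8c had no UMI there. With the assembly factors, 86 of the 95 members reached this minimum. A UMI tags the 3' end of a transcript, and CPM is the share of a class's UMIs, so more transcripts of a member and fewer of all other genes cannot be told apart.

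The summed nuclear subunits were higher in macrophage-like cells of AngII/PE hearts than of saline hearts and nearly equal between carboplatin and PBS. They held 14002 CPM in the carboplatin AngII/PE library, 13907 CPM in the PBS AngII/PE library, 11382 CPM in the carboplatin saline library and 11226 CPM in the PBS saline library. Both AngII/PE libraries lay above both saline libraries. The AngII/PE over saline ratio was 1.23 (1.22 to 1.24) after carboplatin and 1.24 (1.23 to 1.24) after PBS, 2 comparisons that share no library. With the mix of macrophage subsets held equal, described further on, the AngII/PE ratios were 1.07 and 1.06. The carboplatin over PBS ratio was 1.01 (1.003 to 1.01) under AngII/PE and 1.01 (1.008 to 1.02) under saline.

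**Figure D1:**
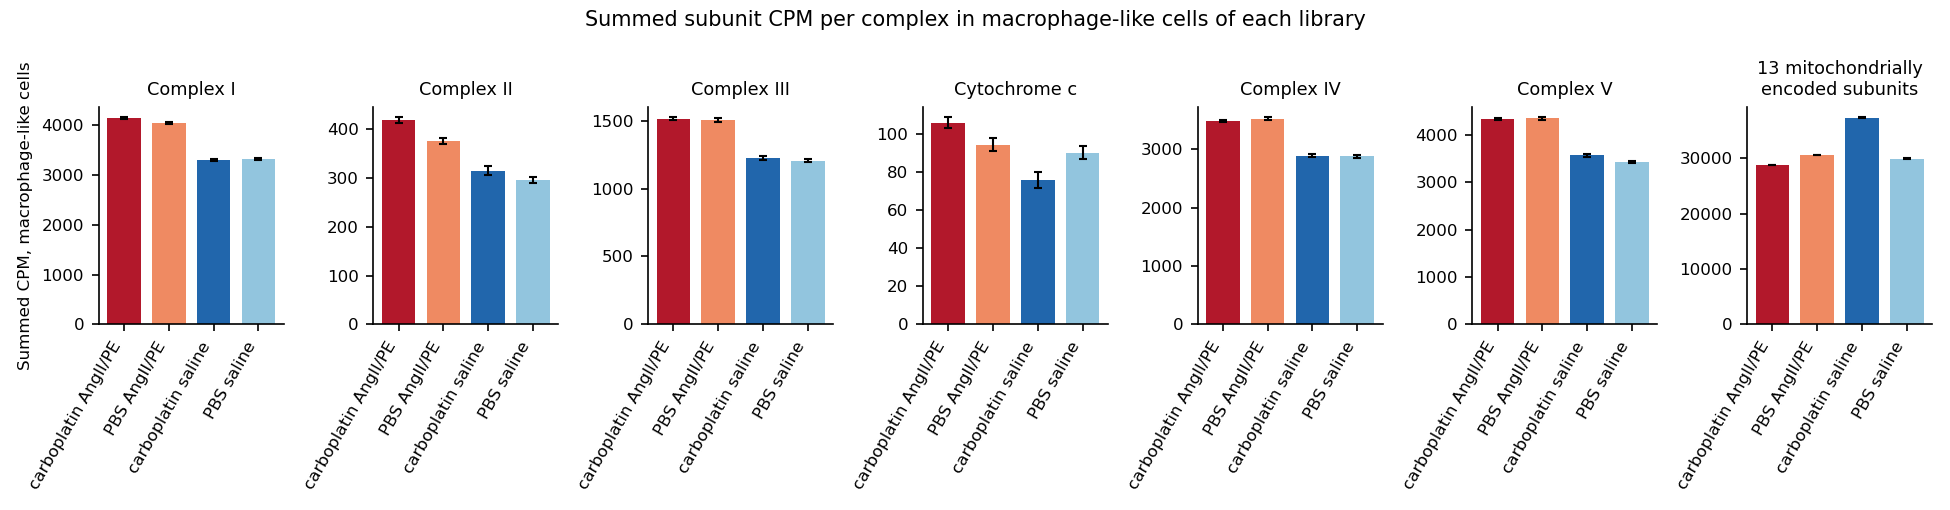
Summed CPM of the nuclear subunits of each complex, of cytochrome c and of the 13 mitochondrially encoded subunits in macrophage-like cells, as 1 bar per library with exact 95% counting intervals. Complexes I to V are higher in both AngII/PE bars than in both saline bars, while the mitochondrially encoded subunits are highest in the carboplatin saline bar at 37288 CPM.

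Most single subunits lay on the same side. After carboplatin, 74 of the 79 were higher under AngII/PE, and 51 of them by at least 1.2-fold, which is 64.6% of the subunits measured, where 29.4% of the 8491 genes compared were that much higher. After PBS, 71 were higher and 41 of them by at least 1.2-fold, which is 51.9%, where 25.6% of genes were that much higher. Lower by at least 1.2-fold were 0 and 1 subunits, where 22.3% and 25.5% of genes were. The median log2 ratio of the subunits was 0.31 after carboplatin and 0.27 after PBS, beside 0.04 and 0.006 over all genes. Over all genes these ratios also went with transcript length, as given further on. In both comparisons at once, 32 of 79 subunits and 1649 of 8491 genes were at least 1.2-fold higher. Within each called sex the subunits' median was 0.23 in cells called female and 0.38 in those called male after carboplatin, and 0.24 and 0.29 after PBS.

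**Figure D2:**
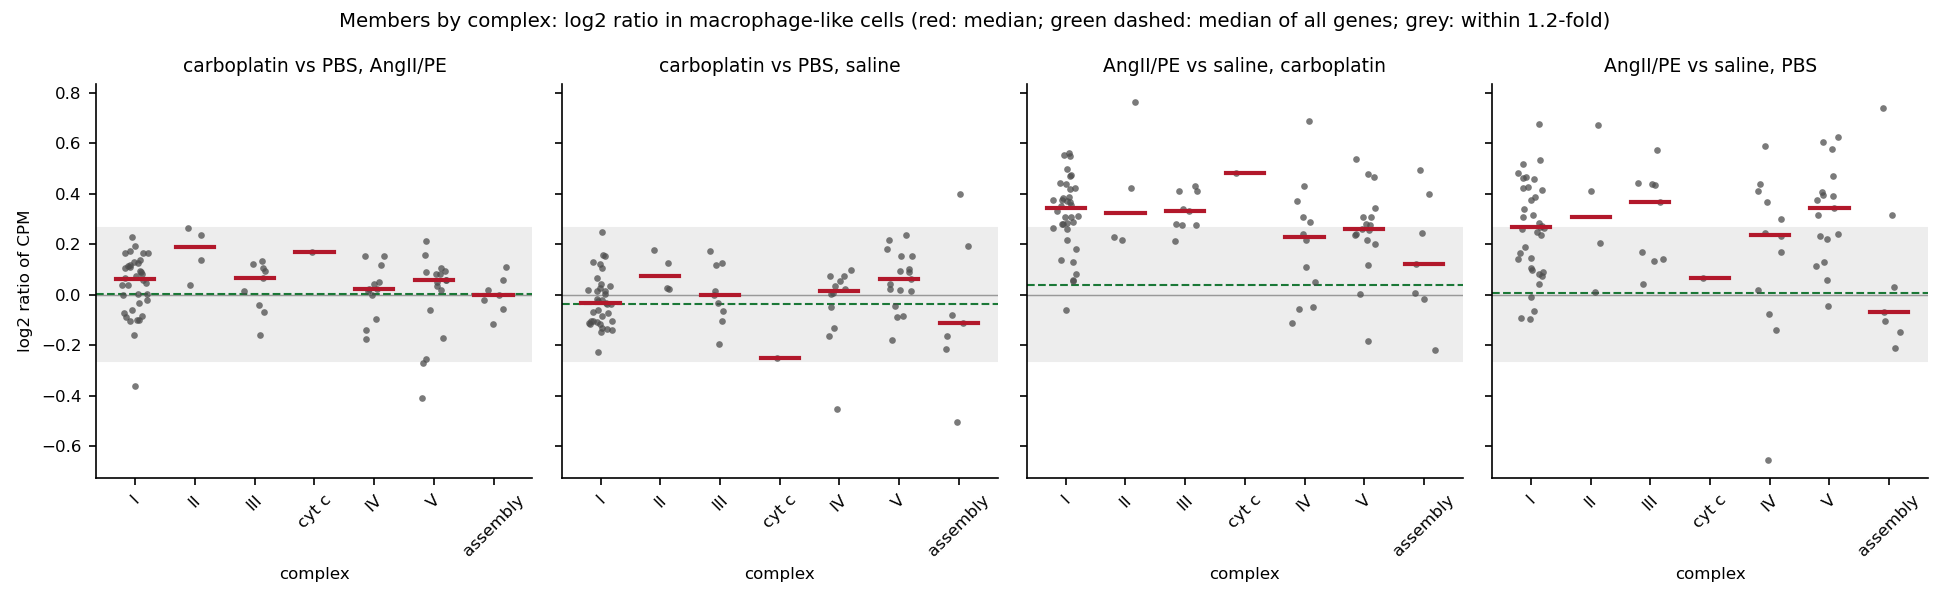
Log2 ratio of CPM for each member that averaged at least 10 CPM in macrophage-like cells, by complex, for the carboplatin over PBS and the AngII/PE over saline comparisons. Points are genes, red bars medians, the green dashed line the median of all genes and the grey band ratios within 1.2-fold. In the AngII/PE panels the red bars of complexes I to V lie above 0 and above the green line.

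Promoter windows, from 250 bases before to 50 after the gene start in RefSeq on GRCm38.p6, were on hand for 68 of the 86 subunit genes. The binding motif of nuclear respiratory factor NRF1, whose letters are the capitals in the windows shown next, was searched on both strands. It occurred in 17 of 68 subunit windows (25%), in 5.19% of the windows of 27025 genes, and in 12.9% of those of the 6830 compared genes that had one. Motifs of other regulators known to act on respiratory genes were rarer. CCGGAAGT, read by ETS factors such as GABP, stood in 7.35% of subunit windows and 10.7% of compared genes, the YY1 motif in 7.35% and 3.00%, and TCAAGGTCA, read by estrogen-related receptors, in 2.94% and 0.322%. At least 1 of the 4 stood in 25 of the 68 windows (36.8%), and in 24.9% of those of the compared genes. A match describes letters and is not a site or a cause.

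In 13 subunit genes NRF1 letters stood before the gene start. The 6 shown are those with the highest and the lowest mean AngII/PE over saline log2 ratio among these, so that windows from both ends can be set side by side. Capitals mark the NRF1 letters, all are read on the minus strand of GRCm38.p6, and the first 3 are the high ones.
Sdhd, chr9:50603909-50603938: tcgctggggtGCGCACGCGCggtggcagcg
Atp5g2, chr15:102671070-102671099: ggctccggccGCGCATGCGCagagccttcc
Ndufa8, chr2:36049349-36049378: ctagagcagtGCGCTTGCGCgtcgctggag
Atp5k, chr5:108434430-108434459: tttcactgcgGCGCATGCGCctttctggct
Ndufa5, chr6:24527697-24527726: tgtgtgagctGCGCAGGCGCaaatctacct
Cox6a1, chr5:115349056-115349085: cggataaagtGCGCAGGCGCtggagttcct
The Sdhd letters lie 79 bases before its start and inside an untranslated exon of Timm8b, a gene of mitochondrial import on the other strand. In the gene annotation of the same build the Atp5g2, Ndufa8, Atp5k and Ndufa5 stretches overlap an untranslated exon of the gene itself, and the Cox6a1 stretch, which lies 117 bases before its start, overlaps no exon. The core letters of Atp5g2 and Atp5k are identical, as are those of Ndufa5 and Cox6a1. Among subunits that were measured, the 17 with NRF1 letters had median AngII/PE log2 ratios of 0.28 after carboplatin and 0.27 after PBS. The 47 without had 0.31 and 0.30, so the letters did not divide the subunits by their ratio.

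Complex I oxidises NADH. Its 36 nuclear subunits summed to 4145 CPM in the carboplatin AngII/PE library, 4055 CPM in the PBS AngII/PE library, 3306 CPM in the carboplatin saline library and 3330 CPM in the PBS saline library. AngII/PE over saline was 1.25 after carboplatin and 1.22 after PBS. At least 1.2-fold higher were 27 and 19 of the 36 subunits (75% and 52.8%), where 29.4% and 25.6% of all genes were. Lower by as much were 0, where 22.3% and 25.5% of genes were.

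Among the core subunits that carry the flavin and the iron-sulfur clusters, Ndufs8 had 89.1 and 81.1 CPM in the carboplatin and PBS AngII/PE libraries, against 66.5 and 55.9 CPM in the carboplatin and PBS saline libraries. Both AngII/PE libraries were higher, with log2 ratios of 0.42 after carboplatin and 0.54 after PBS. Ndufs3, another core subunit, had 85.3, 76.1, 57.9 and 62.4 CPM in the same order of libraries, with log2 ratios of 0.56 and 0.29. Ndufs1, the largest of the iron-sulfur subunits, had 32, 31.9, 29.1 and 34.0 CPM, and its AngII/PE log2 ratios of 0.14 and -0.09 had intervals that reached 1-fold on the linear scale (0.996 to 1.22 and 0.859 to 1.03). Core subunits thus ran from a clear excess under AngII/PE to none.

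Of the accessory subunits, which surround the core, Ndufa6 had 186 and 197 CPM in the carboplatin and PBS AngII/PE libraries, against 137 and 123 CPM in the carboplatin and PBS saline libraries. Its AngII/PE over saline ratio of 1.60 (1.53 to 1.67) after PBS was the highest of complex I there, beside 1.35 (1.30 to 1.42) after carboplatin. Within sexes the PBS log2 ratio was 0.42 in cells called female and 0.89 in those called male. Ndufc2 had 193, 187, 132 and 135 CPM in the order carboplatin AngII/PE, PBS AngII/PE, carboplatin saline and PBS saline. It was higher in both AngII/PE libraries, by log2 ratios of 0.55 and 0.47. Ndufa8, whose promoter letters are printed above, had 96.3, 82.3, 65.7 and 69.7 CPM and log2 ratios of 0.55 and 0.24. Ndufab1, the acyl carrier protein of the complex, had 81.6, 74.7, 67.0 and 72.6 CPM, with log2 ratios of 0.28 and 0.04. After PBS the log2 ratio of Ndufab1 was 0.40 in female-called cells and -0.22 in male-called ones. Ndufa9, which stabilises the junction between the arms, had 45.4, 43.1, 42.9 and 46.1 CPM and showed no common direction.

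Complex II, succinate dehydrogenase, also belongs to the TCA cycle, and its 4 genes showed the widest excess of any complex after carboplatin. They summed to 418 CPM in the carboplatin AngII/PE library, 375 CPM in the PBS AngII/PE library, 315 CPM in the carboplatin saline library and 296 CPM in the PBS saline library. AngII/PE over saline was 1.33 after carboplatin and 1.27 after PBS, and carboplatin over PBS was 1.12 under AngII/PE and 1.06 under saline.

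Sdhd, a membrane anchor that helps to bind ubiquinone, had the highest AngII/PE over saline ratios of the complex. It had 94.4 CPM in the carboplatin AngII/PE library, 78.5 CPM in the PBS AngII/PE library, 55.6 CPM in the carboplatin saline library and 49.3 CPM in the PBS saline library. The 4 libraries followed a single order in which AngII/PE lay above saline and, within each, carboplatin above PBS. AngII/PE over saline was 1.70 (1.58 to 1.82) after carboplatin and 1.59 (1.49 to 1.70) after PBS, and carboplatin over PBS was 1.2 (1.15 to 1.26) under AngII/PE and 1.13 (1.04 to 1.23) under saline. Within sexes its AngII/PE log2 ratios were 0.72 in cells called female and 0.85 in those called male after carboplatin, and 0.66 and 0.79 after PBS. Its head-to-head neighbour Timm8b had 49.4, 49.3, 35.4 and 32.4 CPM in the same order of libraries, higher under AngII/PE as well.

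Sdhb, which holds the iron-sulfur clusters, had 166, 151, 124 and 114 CPM in the order carboplatin AngII/PE, PBS AngII/PE, carboplatin saline and PBS saline, with AngII/PE log2 ratios of 0.42 and 0.41. Sdha, the flavoprotein that oxidises succinate, had 92, 89.7, 79.2 and 77.8 CPM, with log2 ratios of 0.22 and 0.20. Both were higher under AngII/PE by a like amount after carboplatin and after PBS. Sdhc, the other anchor, had 65.5 CPM in the carboplatin AngII/PE library and 55.1 to 55.9 CPM in the other 3, so it did not follow its partner Sdhd.

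Complex III summed to 1514, 1506, 1224 and 1205 CPM in the order carboplatin AngII/PE, PBS AngII/PE, carboplatin saline and PBS saline, with AngII/PE ratios of 1.24 after carboplatin and 1.25 after PBS. Of its 9 genes, 8 (88.9%) were at least 1.2-fold higher after carboplatin and 5 (55.6%) after PBS, where 29.4% and 25.6% of all genes were. Uqcrfs1, the Rieske iron-sulfur protein, had 92.6, 86.8, 69.6 and 63.8 CPM and log2 ratios of 0.41 and 0.44. Uqcr10, a small subunit, had 169, 174, 127 and 117 CPM and log2 ratios of 0.41 and 0.57. Both AngII/PE libraries were above both saline libraries for each. The catalytic haem protein Cyc1 had 78.2, 72.7, 57.9 and 66.3 CPM, with log2 ratios of 0.43 after carboplatin and 0.13 after PBS. After PBS the log2 ratio of Cyc1 was 0.36 in female-called cells and -0.11 in male-called ones.

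The core proteins Uqcrc1 and Uqcrc2 followed the sum less closely after PBS. Uqcrc1 had 120, 110, 98.9 and 97.8 CPM in the order carboplatin AngII/PE, PBS AngII/PE, carboplatin saline and PBS saline, with AngII/PE log2 ratios of 0.28 and 0.17, and Uqcrc2 had 90.1, 82.1, 71.2 and 74.4 CPM, with 0.34 and 0.14. Both were higher in both AngII/PE libraries. Uqcrh, the hinge protein near cytochrome c, had 354, 351, 293 and 259 CPM and log2 ratios of 0.28 and 0.43, and Uqcr11, a small membrane subunit, had 183, 205, 151 and 151 CPM and 0.28 and 0.44. Uqcrb, which binds near the ubiquinone site, had the lowest ratios of the complex, 0.21 and 0.04, from 239, 228, 206 and 222 CPM.

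Cytochrome c, which shuttles electrons and also takes part in apoptosis when released, had an AngII/PE ratio that differed between the carboplatin and the PBS libraries. Cycs had 106 CPM in the carboplatin AngII/PE library, 94.3 CPM in the PBS AngII/PE library, 75.7 CPM in the carboplatin saline library and 90.0 CPM in the PBS saline library. AngII/PE over saline was 1.40 (1.32 to 1.49) after carboplatin and 1.05 (0.993 to 1.10) after PBS. The PBS saline value mixed 116 CPM in male-called with 63.3 CPM in female-called cells, a log2 difference of 0.88, while the sexes of the other libraries lay within 75.3 and 109 CPM. In female-called cells alone the AngII/PE log2 ratio was 0.50 after carboplatin and 0.60 after PBS, and in male-called cells 0.45 and -0.35. The weak PBS ratio was thus seen in male-called and not in female-called cells.

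Complex IV summed to 3484 CPM in the carboplatin AngII/PE library, 3527 CPM in the PBS AngII/PE library, 2893 CPM in the carboplatin saline library and 2877 CPM in the PBS saline library. Its AngII/PE ratios were 1.2 after carboplatin and 1.23 after PBS. In each, 5 of 12 measured subunits (41.7%) were at least 1.2-fold higher, where 29.4% and 25.6% of all genes were. Cox4i1, the common regulatory subunit, had 692, 672, 514 and 506 CPM in the order carboplatin AngII/PE, PBS AngII/PE, carboplatin saline and PBS saline, with log2 ratios of 0.43 and 0.41. Cox5a, a matrix-side subunit, had 264, 237, 164 and 184 CPM and log2 ratios of 0.69 and 0.37. Cox8a, a small membrane subunit, had 504, 555, 389 and 370 CPM and log2 ratios of 0.37 and 0.59. All 3 were higher in both AngII/PE libraries. Cox6b1, on the intermembrane side, had 333, 330, 282 and 268 CPM and log2 ratios of 0.24 and 0.30, and Cox7a2, a small membrane subunit, had 213, 214, 183 and 190 CPM and ratios of 0.22 and 0.17, both on the same side.

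Other subunits of complex IV were not. Cox6a1, which sits at the dimer interface, had 145 and 143 CPM in the carboplatin and PBS AngII/PE libraries, against 157 and 151 CPM in the carboplatin and PBS saline libraries. Its AngII/PE over saline ratios of 0.926 (0.886 to 0.968) after carboplatin and 0.948 (0.909 to 0.988) after PBS ran the other way, on a small scale. Cox7b, an accessory subunit, had 146, 144, 152 and 142 CPM, and Ndufa4, which was long counted to complex I and is now placed in complex IV, had 199, 183, 184 and 202 CPM. Neither showed a common direction. Cox7c, a small membrane subunit, had 349, 394, 337 and 336 CPM, with AngII/PE log2 ratios of 0.05 and 0.23 and the lowest carboplatin over PBS ratio of the complex under AngII/PE, 0.884 (0.865 to 0.904). A paralogue of NDUFA4 known from inflamed macrophages, AA467197, had 19.3 and 26.2 CPM in the carboplatin and PBS AngII/PE libraries, against 6.35 and 3.65 CPM in the carboplatin and PBS saline libraries, log2 ratios of 1.60 and 2.84.

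Complex V summed to 4336, 4351, 3570 and 3428 CPM in the order carboplatin AngII/PE, PBS AngII/PE, carboplatin saline and PBS saline. AngII/PE over saline was 1.21 after carboplatin and 1.27 after PBS. At least 1.2-fold higher were 8 and 10 of 17 subunits (47.1% and 58.8%), where 29.4% and 25.6% of all genes were. Atp5g2 encodes the c subunit of the rotor ring, as Atp5g1 and Atp5g3 do. It had 415, 401, 286 and 269 CPM and log2 ratios of 0.54 and 0.58, while Atp5g1 had 183, 176, 160 and 169 CPM and ratios of 0.20 and 0.06. Atp5g3 had 125, 122, 104 and 93.7 CPM and ratios of 0.26 and 0.38. Atp5g2 therefore made up 57.4% of the c subunit UMIs in each AngII/PE library, against 52.1% in the carboplatin saline library and 50.5% in the PBS saline library.

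The catalytic subunit Atp5b had 294, 278, 253 and 287 CPM in the order carboplatin AngII/PE, PBS AngII/PE, carboplatin saline and PBS saline, with AngII/PE log2 ratios of 0.22 and -0.04. Atp5e, the epsilon subunit of the rotor stalk, had 478, 538, 405 and 349 CPM and log2 ratios of 0.24 and 0.62. Atp5e was thus higher in both AngII/PE libraries and Atp5b in the carboplatin one only. Atp5mpl, a proteolipid bound to the membrane part, had 196, 234, 181 and 154 CPM, with log2 ratios of 0.12 and 0.61. Atp5o, which couples the stator to the catalytic head, had 137, 118, 113 and 108 CPM and the highest carboplatin over PBS ratio of complex V under AngII/PE, 1.16 (1.11 to 1.2). Atpif1, which encodes the inhibitor of ATP synthase and is not among the members, had 289 and 294 CPM in the carboplatin and PBS AngII/PE libraries, against 319 and 329 CPM in the carboplatin and PBS saline libraries. It was lower in both AngII/PE libraries, with log2 ratios of -0.14 after carboplatin and -0.16 after PBS.

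Carboplatin and PBS differed little in this gene set. Under AngII/PE, 1 of 79 subunits, Sdhd, was at least 1.2-fold higher in the carboplatin library, where 3.34% of genes were. By as much lower were 3 subunits, Atp5k, Ndufa3 and Atp5md, where 5.18% of genes were. Under saline, 0 subunits were at least 1.2-fold higher in the carboplatin library, where 7.96% of genes were, and 1 was lower, Cox6a2, where 11.7% of genes were. The subunits' median log2 ratios were 0.06 and 0.01, beside 0.004 and -0.04 over all genes. All 4 shares lie below those of all genes.

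The 3 subunits that were lower after carboplatin under AngII/PE encode short proteins. Atp5k, subunit e of the membrane part of ATP synthase, had 120 CPM in the carboplatin AngII/PE library and 160 CPM in the PBS AngII/PE library, a ratio of 0.752 (0.725 to 0.780). In the saline libraries it had 137 CPM after carboplatin and 120 CPM after PBS, a ratio of 1.13 (1.07 to 1.2). Ndufa3, a membrane-arm accessory subunit, had 112 and 144 CPM under AngII/PE after carboplatin and PBS, and 117 and 105 CPM under saline, with ratios of 0.779 and 1.11. Atp5md, another small membrane subunit of ATP synthase, had 135 and 163 CPM under AngII/PE and 135 and 131 CPM under saline, with ratios of 0.829 and 1.03. The PBS AngII/PE library was the highest of the 4 for each of them.

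The carboplatin over PBS log2 ratio under AngII/PE went with transcript length among the 79 subunits (Pearson's r = 0.476 and Spearman's rho = 0.500 across genes, which are not independent replicates). The 12 subunits whose median coding transcript is shorter than 500 bases had a median log2 ratio of -0.12, and the other 67 had 0.08. Under saline the order was opposite, with 0.14 for the short and -0.02 for the longer ones (r = -0.318). Over 8275 genes with a length, r was -0.118 under AngII/PE, while the 78 cytosolic ribosomal protein genes, which are short too, had r = 0.524. AngII/PE over saline went with length too, with rho of -0.331 after carboplatin and -0.274 after PBS over the 8275 genes. Genes under 500 bases had medians of 0.14 and 0.20, and longer ones 0.04 and 0.005. Subunits under 500 bases had 0.24 and 0.45, and longer ones 0.31 and 0.24. The part of length in the subunits' excess under AngII/PE was not tested, nor was that of library preparation in any of these ratios.

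**Figure D3:**
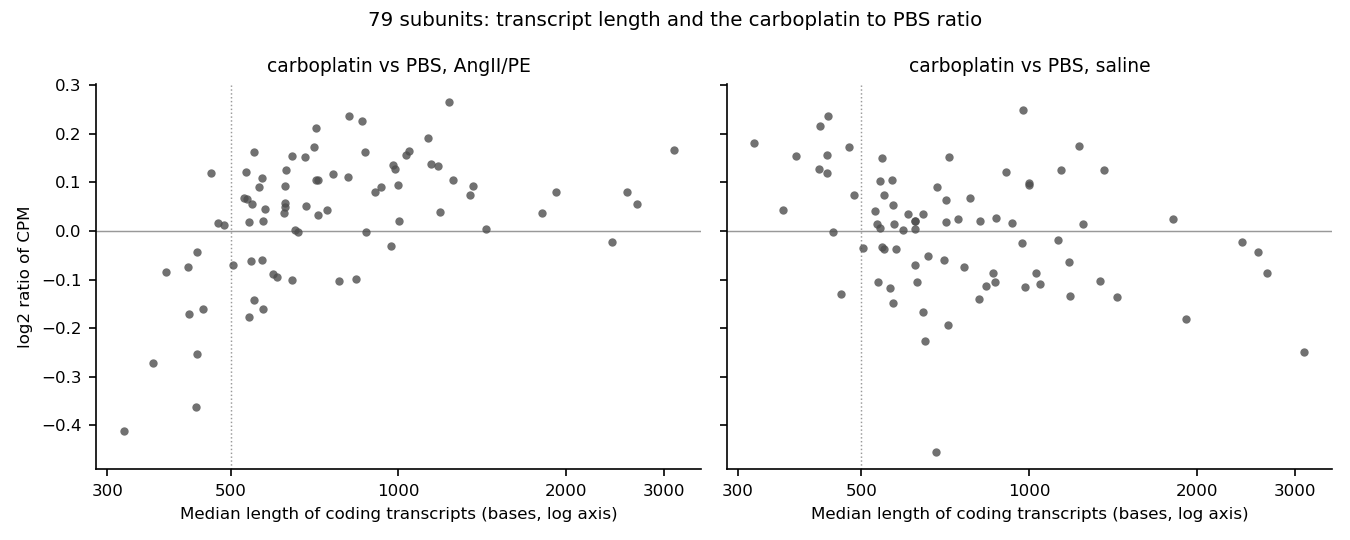
Carboplatin over PBS log2 ratio of each subunit in macrophage-like cells against the median length of its coding transcripts in bases (log axis), under AngII/PE and under saline. Points are the 79 subunits; those shorter than 500 bases have a median of -0.12 under AngII/PE and of 0.14 under saline.

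Of the 9 assembly factors, 7 reached the minimum, and their sum was 458, 446, 375 and 338 CPM in the order carboplatin AngII/PE, PBS AngII/PE, carboplatin saline and PBS saline. Cox7a2l (17:83501918-83517330, minus strand), a factor that joins complexes III and IV into supercomplexes, made up most of it. It had 293 and 282 CPM in the carboplatin and PBS AngII/PE libraries, against 223 and 169 CPM in the carboplatin and PBS saline libraries. The PBS saline level stood apart in male-called cells alone, where it was 112 CPM (106 to 119), against 219 CPM (211 to 228) in its female-called cells. In the other 3 libraries the sexes were close, with 305 and 285 CPM in male-called and female-called cells of the carboplatin AngII/PE library, 290 and 265 CPM in the PBS AngII/PE library, and 232 and 210 CPM in the carboplatin saline library. The carboplatin over PBS log2 ratio under saline was therefore 1.04 in male-called and -0.06 in female-called cells, and AngII/PE over saline after PBS was 1.36 and 0.27.

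Other cell classes of the PBS saline library showed the male-called level of Cox7a2l less far below the female-called one. B cell-like cells had 120 CPM (96.9 to 146) in male-called and 184 CPM (153 to 220) in female-called cells, and cDC2-like cells had 175 and 238 CPM. Endothelial-like cells had 207 CPM (187 to 229) in male-called and 229 CPM (202 to 259) in female-called cells, where the intervals overlap. Ndufaf4, a complex I assembly factor, had 28.0 CPM in male-called and 13.5 CPM in female-called macrophage-like cells of that library, the opposite side, and 12.5 to 19.9 CPM elsewhere. In all, 21 of 86 members lay at least 1.2-fold apart between the sexes there, where 43.6% of genes did, against 1, 3 and 4 members in the carboplatin AngII/PE, PBS AngII/PE and carboplatin saline libraries, where 14.5%, 16.7% and 15.8% of genes did. How many mice of each sex gave these cells was not given, so sex and single mice cannot be told apart.

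The 13 mitochondrially encoded subunits did not follow the nuclear ones. They summed to 28775 CPM in the carboplatin AngII/PE library, 30592 CPM in the PBS AngII/PE library, 37288 CPM in the carboplatin saline library and 29903 CPM in the PBS saline library. The carboplatin saline library stood above the other 3. AngII/PE over saline was 0.772 after carboplatin and 1.02 after PBS. At least 1.2-fold lower were 11 and 6 of the 13 (84.6% and 46.2%), where 22.3% and 25.5% of all genes were. Higher by as much were 0, where 29.4% and 25.6% of genes were. The differences were largest in mt-Nd6, a complex I subunit encoded on the opposite strand to the others, with 7.76 and 9.32 CPM in the carboplatin and PBS AngII/PE libraries, against 32.2 and 29.9 CPM in the carboplatin and PBS saline libraries, log2 ratios of -2.05 and -1.68. In mt-Atp8, a complex V subunit, they were -2.0 and -0.84. The carboplatin saline library also had the largest share of barcodes at or above the mitochondrial limit, 43.2%, against 22.7% in the carboplatin AngII/PE, 30.9% in the PBS AngII/PE and 31.1% in the PBS saline library, and the part of cell quality in this difference was not tested.

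Lists of other mitochondrial genes are read against the 29.4% of all genes that were at least 1.2-fold higher under AngII/PE after carboplatin and the 25.6% after PBS. Of 17 TCA cycle genes, 7 (41.2%) were that much higher after carboplatin and 2 (11.8%) after PBS, with medians of 0.23 and 0.11. Fh1, fumarase, had log2 ratios of 0.47 and 0.17, whereas Suclg2, a subunit of succinyl-CoA ligase, had -0.46 and -0.64. Of 17 genes of fatty acid oxidation, 6 (35.3%) were higher in each, among them Echs1 at 0.41 and 0.65, whereas Cpt1a, which admits fatty acids to mitochondria, had -0.80 and -0.49. Of 26 measured assembly factors of complexes II to V, 13 (50%) and 6 (23.1%) were higher, among them Surf1, an assembly factor of complex IV, at 0.58 and 0.14, and of 26 genes of import and inner membrane 10 (38.5%) and 5 (19.2%). Timm13, which escorts carriers through the intermembrane space, had log2 ratios of 0.68 and 0.49, and Hspd1, the matrix chaperonin, had -0.40 and -0.93. Lrpprc, which stabilises mitochondrial mRNA, had -0.26 and -0.54. Of 12 carriers and channels, 7 (58.3%) and 5 (41.7%) were higher, among them Ucp2, an inner-membrane carrier, with 885 and 960 CPM in the carboplatin and PBS AngII/PE libraries, against 613 and 489 CPM in the carboplatin and PBS saline libraries.

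Transcription regulators of respiration had median AngII/PE over saline log2 ratios of -0.11 and -0.23. Of the 12 measured, 0 and 1 were at least 1.2-fold higher. Lower by as much were 2 after carboplatin (16.7%, beside 22.3% of all genes) and 5 after PBS (41.7%, beside 25.5%). Nrf1, which reads the letters printed above, had 79.1 and 82.6 CPM in the carboplatin and PBS AngII/PE libraries, against 86.8 and 104 CPM in the carboplatin and PBS saline libraries. Pprc1, a coactivator of respiratory genes, had 17.4 and 17.6 CPM against 23.0 and 27.0 CPM. Of 78 cytosolic ribosomal protein genes, 26 were at least 1.2-fold higher under AngII/PE after carboplatin, which is 33.3% and near the 29.4% of all genes, and 57 after PBS, which is 73.1% beside 25.6%, with medians of 0.17 and 0.38.

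The same difference was seen cell by cell. With every macrophage-like cell thinned to 5000 UMIs, the median share of UMIs from nuclear subunits was 1.36% in the carboplatin AngII/PE library (quartiles 1.14% and 1.58%), 1.34% in the PBS AngII/PE library (1.12% and 1.56%), 1.10% in the carboplatin saline library (0.92% and 1.28%) and 1.08% in the PBS saline library (0.88% and 1.28%). The upper quartile of the saline cells lay below the AngII/PE medians, and the ranges overlapped. Shallower cells left out numbered 166, 63, 20 and 54, and the unthinned medians were 1.34%, 1.34%, 1.10% and 1.07%.

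The macrophage-like cells of AngII/PE and saline hearts were largely different subsets. Resident-like cells were 1.09% of macrophage-like cells in the carboplatin AngII/PE library and 3.77% in the PBS AngII/PE library, against 81.5% in the carboplatin saline and 90.3% in the PBS saline library. MHC class II-like, inflammatory-like, lipid-associated-like and interferon-like cells, and a macrophage-like cluster without a subset name, took their place. The subsets differed in the nuclear subunits within 1 library. In the carboplatin AngII/PE library they summed to 12153 CPM in resident-like, 13237 CPM in inflammatory-like, 13359 CPM in MHC class II-like and 13736 CPM in interferon-like cells. Lipid-associated-like cells had 14666 CPM there, and macrophage-like cells without a subset name 14769 CPM. In the PBS AngII/PE library the resident-like cells were again lowest, at 11940 CPM, and the lipid-associated-like cells highest, at 15354 CPM.

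**Figure D4:**
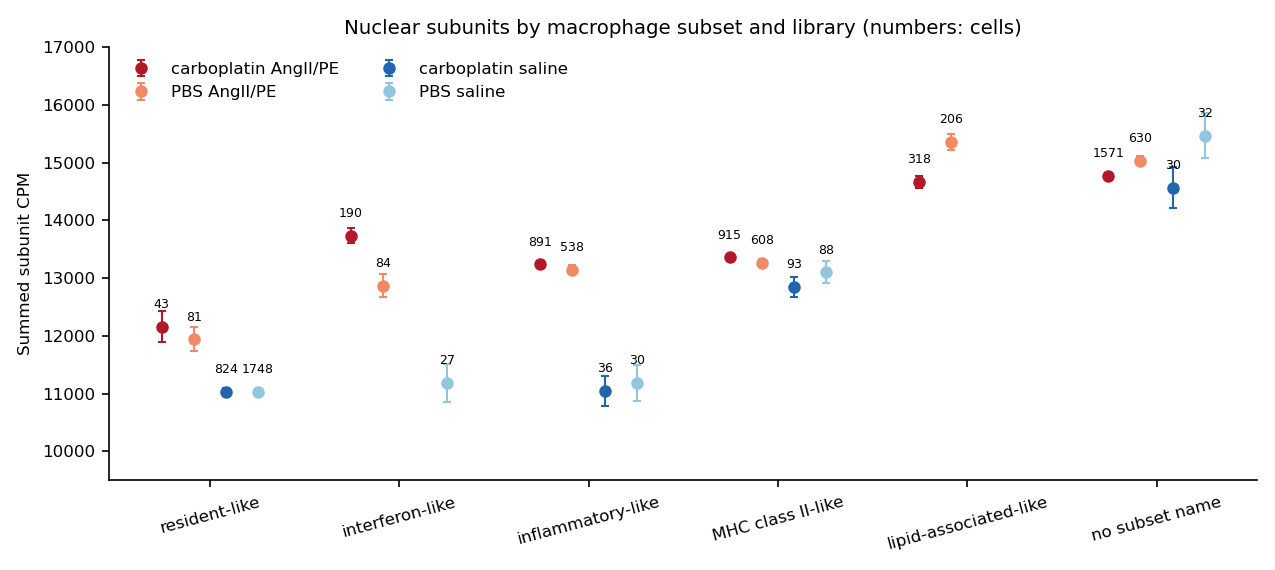
Summed nuclear subunit CPM by macrophage subset, with 1 point per library that had at least 20 such cells, exact 95% counting intervals and the number of cells above each point; the vertical axis does not start at 0. Resident-like cells are lowest in both AngII/PE libraries, at 12153 and 11940 CPM, and the saline resident-like cells lie at 11036 and 11024 CPM.

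Within a subset the AngII/PE excess was smaller. For resident-like cells AngII/PE over saline was 1.10 after carboplatin (43 against 824 cells) and 1.08 after PBS (81 against 1748 cells). For interferon-like cells it was 1.15 after PBS (84 against 27 cells), with too few such cells in the carboplatin saline library. For MHC class II-like cells it was 1.04 and 1.01, from 93 and 88 cells in the carboplatin and PBS saline libraries. For cells without a subset name it was 1.01 and 0.972, from 30 and 32 cells there. For inflammatory-like cells it was 1.2 and 1.18, from 36 and 30 cells there. With the subset mix held equal between libraries, a weighting chosen after the data were seen, the ratios were 1.07 and 1.06 in place of 1.23 and 1.24. This weighting covered 4 subsets after carboplatin, without interferon-like and lipid-associated-like cells, and 5 after PBS, without lipid-associated-like cells. It rests in part on subsets with few saline cells, such as the cells without a subset name. At the equal mix the subunits at least 1.2-fold higher numbered 19 after carboplatin (24.1%) and 13 after PBS (16.5%). Of all genes, 23.6% and 22.2% were that much higher. The share of subunits was thus near that of all genes after carboplatin and below it after PBS. Lower by as much were 4 and 5 subunits, where 21.5% and 20.7% of genes were, and the subunits' median log2 ratios were 0.12 and 0.04, beside 0.02 and 0.02 over all genes.

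Of the 79 subunits, only Ndufa6, Ndufc2 and Sdhd were at least 1.2-fold higher in both comparisons at an equal mix, with log2 ratios of 0.38 and 0.47, 0.48 and 0.32, and 0.72 and 0.39 after carboplatin and PBS. Cox6a1 was at least 1.2-fold lower in both, at -0.44 and -0.38. Of all genes, 11.7% were that much higher in both and 11% that much lower in both, so neither count is an excess. Grouping the cells without the members' own counts left resident-like ratios of 1.13 and 1.08. In that grouping inflammatory-like cells had 1.18 and 1.14, MHC class II-like cells 1.04 and 1.03, and interferon-like cells 1.17 after PBS. Lipid-associated-like cells went the other way, at 0.947 and 0.960, from 41 and 33 cells in the carboplatin and PBS saline libraries. Across the 6 subsets the highest level of a subunit was most often in lipid-associated-like cells. These held it for 31 of 79 in the carboplatin AngII/PE and 49 of 79 in the PBS AngII/PE library. Cells without a subset name came next, at 29 and 21. The lowest level was most often in resident-like cells, for 49 and 43. The shares of all genes were not counted, so these counts are not read as an excess. Cycs was an exception, with its highest level in interferon-like cells, at 180 and 162 CPM against 78.5 and 68.1 CPM in resident-like cells.

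Between cell classes of the same library, cardiomyocyte-like cells had the highest summed nuclear subunit CPM, in each library 1.43-fold to 5.26-fold the macrophage-like level. Their sums were 20009 CPM (56 cells) in the carboplatin AngII/PE library, 24124 CPM (48 cells) in the PBS AngII/PE library, 50510 CPM (41 cells) in the carboplatin saline library and 59002 CPM (28 cells) in the PBS saline library. Both AngII/PE libraries were lower. The summed cardiomyocyte markers of the class stood in the same order, at 6567, 8040, 20090 and 22623 CPM, and the class also held macrophage markers, so fewer subunit transcripts and fewer muscle transcripts per droplet cannot be told apart. Mural-like cells had 21710 CPM in the carboplatin saline and 25388 CPM in the PBS saline library, and B cell-like cells 0.787 to 0.852 of the macrophage-like level.

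Endothelial-like cells had 15018 and 13856 CPM in the carboplatin and PBS AngII/PE libraries, against 12740 and 11981 CPM in the carboplatin and PBS saline libraries, so both AngII/PE libraries were higher here too. Fibroblast-like cells had 12380, 11365, 11824 and 12073 CPM in the same order of libraries and showed no common direction. Across 11 classes the nuclear and the mitochondrially encoded sums went together with r = 0.545, a description over classes that share libraries, and without cardiomyocyte-like and mural-like cells r was -0.0003 over 9 classes.

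Members differed in how far they varied over these 11 classes, taken as means over libraries with at least 20 cells. The neutrophil-like class was 23 cells of 1 library, where 1 UMI is 4.61 CPM. The T cell-like class, named from NK and ILC markers as well, was 35 cells of 1 library. Low values in these 2 classes rest on few UMIs, and so do the spreads they enter. Among members that averaged at least 10 CPM in macrophage-like cells Cox6a2 varied most, from 939 CPM in cardiomyocyte-like cells to 10.7 CPM in macrophage-like cells and no UMI in T cell-like cells. Cycs had 555 CPM in cardiomyocyte-like, 260 CPM in mural-like and 13.8 CPM in neutrophil-like cells, and Ndufa5, an accessory subunit of complex I, had 469, 243 and 46.1 CPM there. Cox7a2l varied least, from 170 CPM in fibroblast-like to 332 CPM in cardiomyocyte-like cells, followed by Ndufs4, a complex I subunit late to join the complex, from 78.5 CPM in neutrophil-like to 180 CPM in T cell-like cells, and by Ndufaf7, from 17.6 to 38.2 CPM.

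Muscle isoforms of complex IV separated the classes. Cox6a2, the muscle partner of Cox6a1, gave 69.0%, 79.2%, 90.9% and 93.1% of the pair's UMIs in cardiomyocyte-like cells in the order carboplatin AngII/PE, PBS AngII/PE, carboplatin saline and PBS saline. In macrophage-like cells it gave 6.36%, 5.83%, 6.10% and 8.46%. Cox8b, the muscle partner of Cox8a, gave 17.2%, 33.8%, 65.3% and 75% in cardiomyocyte-like cells and 0.392%, 0.453%, 1.39% and 1.46% in macrophage-like cells. Cox7a1, the muscle partner of Cox7a2, gave 27.0%, 32.7%, 47.1% and 56.1% against 2.40%, 2.55%, 3.68% and 3.79%. All 3 muscle shares of cardiomyocyte-like cells were lower in both AngII/PE libraries. The summed cardiomyocyte markers of the class were lower there as well, and the class also held macrophage markers. A change of isoform and a change in the mix of RNA per droplet therefore cannot be told apart. In macrophage-like cells there were 113, 91.0, 81.3 and 94.8 Cox6a2 UMIs per 1000 UMIs of the cardiomyocyte markers, and in cardiomyocyte-like cells 32.4, 45.1, 67.8 and 80.4, and whether free RNA from muscle gave the UMIs in macrophage-like cells was not tested further.

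**Figure D5:**
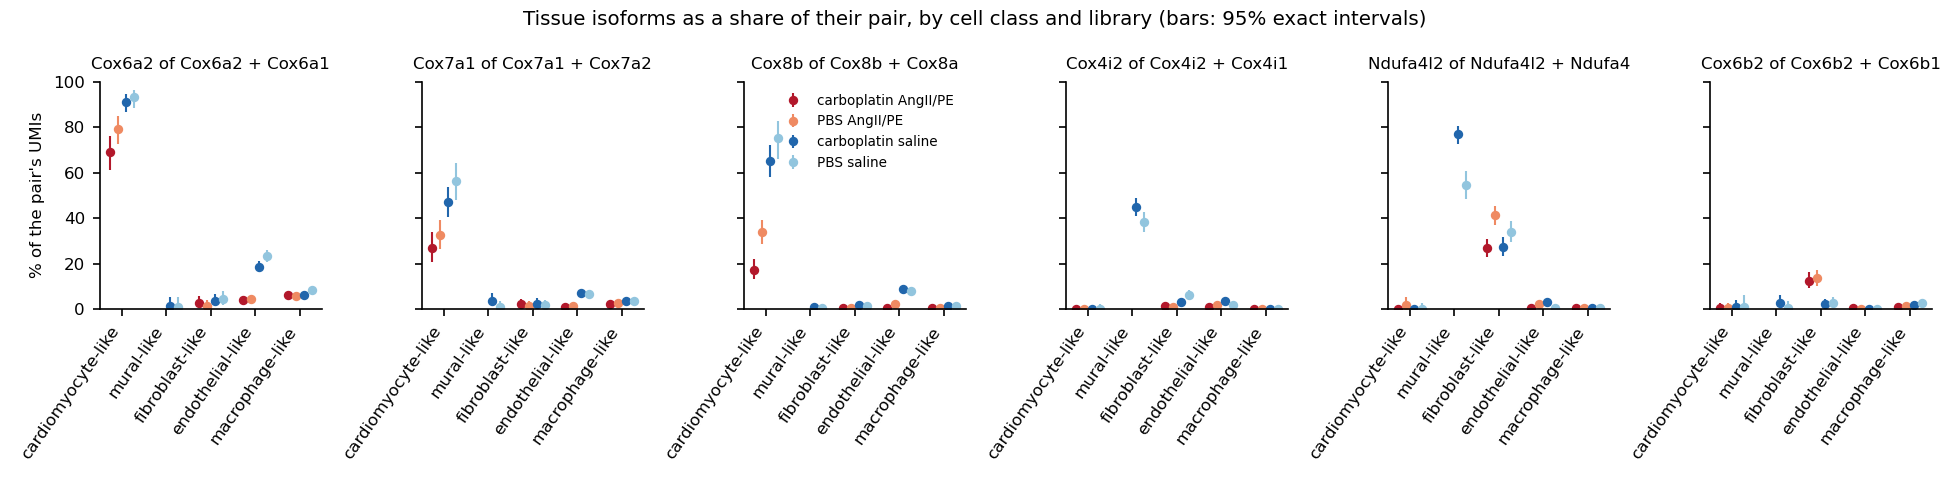
Share of an isoform pair's UMIs that came from the tissue isoform, in percent, by cell class and library, for classes with at least 20 cells. Muscle isoforms are highest in cardiomyocyte-like cells, where Cox6a2 ranges from 69.0% to 93.1%, and Cox4i2 and Ndufa4l2 are highest in mural-like cells.

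The isoforms known from low oxygen took their highest shares in mural-like cells. Cox4i2, the partner of Cox4i1, gave 45.0% of the pair's UMIs in mural-like cells of the carboplatin saline library and 38.1% in those of the PBS saline library. Ndufa4l2, the partner of Ndufa4, gave 76.7% and 54.6% there, and 26.7%, 41.2%, 27.3% and 34.1% in fibroblast-like cells in the order carboplatin AngII/PE, PBS AngII/PE, carboplatin saline and PBS saline. In macrophage-like cells it gave 0.35% to 0.50%. Cox4i2 was low in fibroblast-like cells, at 1.46%, 0.922%, 3.34% and 6.01% of its pair in the same order of libraries, beside 1.04%, 1.68%, 3.44% and 1.75% in endothelial-like cells. The mural marker genes summed to 340, 274, 282 and 293 CPM in the fibroblast-like cells, far below the 21642 and 25642 CPM of mural-like cells in the carboplatin and PBS saline libraries.

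The c subunit genes of ATP synthase differed by class too. Atp5g1 gave 48.0%, 49.7%, 57.6% and 59.0% of the c subunit UMIs in cardiomyocyte-like cells in the order carboplatin AngII/PE, PBS AngII/PE, carboplatin saline and PBS saline, and 25.3%, 25.2%, 29.0% and 31.8% in macrophage-like cells. Mural-like cells drew 38.5% and 40.9% from Atp5g3 in the carboplatin and PBS saline libraries, where macrophage-like cells drew 18.9% and 17.6%.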

How the data were processed

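Single-cell RNA was counted in 4 libraries, 1 per group. The authors deposited raw UMI counts per gene and barcode, made with Cell Ranger 7.1.0 per the file headers and version 3 per the labels' protocols, with reads aligned to mm10. The treatment of intron reads was not given in these sources. For Seurat the labels' protocols name 3.2.3, and the authors' release is 4 per the submitters' processing notes. The reagent kit was version 3.1 per the labels, which also name an earlier version for library steps.

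The filters the submitters state were applied: above 500 and below 7000 genes, under 30000 UMIs, and less than 10% of UMIs from mitochondrial genes. They left 17312 of 27968 barcodes, holding 62943457 to 95752612 UMIs per library before filtering. No doublets were removed. Cells were normalised together (SCTransform of sctransform 0.4.2, run in R 4.3.3 with Seurat 5.3.0), and 80 principal components gave, at resolution 0.6, 21 clusters, without integration. Clusters were named from 26 marker lists. A class needed 60% of a list's markers, at least 2-fold above other cells. A macrophage-like cluster needed 7 of 10 macrophage markers and 50% of its libraries' median UMIs, and a subset name 40% of its markers. The naming limits were chosen with the data in view, so names are rebuilt and not the authors' annotation. They left out 14.6%, 18.0%, 18.3% and 18.7% of kept cells in low-UMI clusters and 1.55%, 5.82%, 15.3% and 9.10% in a cluster led by rRNA, in the order carboplatin AngII/PE, PBS AngII/PE, carboplatin saline and PBS saline. Cardiomyocyte-like, endothelial-like, fibroblast-like and lymphocyte-like clusters, which the submitters removed, were kept as comparisons.

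UMIs were summed per library and class (at least 20 cells) and divided by the total to give CPM (Python 3.11.15, numpy 2.4.6, scipy 1.17.1, pandas 2.3.3). Level intervals are exact Poisson and ratio intervals exact conditional binomial, at 95%. Folds of 1.2 and a mean of 10 CPM were used over the 8491 genes that reached it. With 1 library per group there was no test. Ratios were tested on simulated data. Named members are the highest and lowest ratio of each complex in each comparison, all of complex II, the cytochromes, complex III core proteins, isoform pairs and the ATP synthase inhibitor, the extremes over classes and list members with large ratios; any other was chosen after its values were seen. Positions and transcript lengths came from GENCODE on the same build and promoters from RefSeq. Alternatives covered cell filters, clusters used, scaling, sex-called cells and cardiomyocyte RNA. The members and lists were chosen with earlier results of these data known.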

Additional observations from a re-analysis of the deposited data

Results flagged for a closer look

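In 8 subunits the carboplatin over PBS ratio in macrophage-like cells lay on opposite sides of 1 under AngII/PE and under saline, with the ratio of the 2 ratios at least 1.2-fold from 1 and the counting interval of each ratio wholly on its own side of 1. With 1 library per arm the difference was not tested. The share of all genes compared that meets the same rule was not counted, so the number of subunits is not read as an excess. The AngII/PE ratio divided by the saline ratio was 0.664 for Atp5k (0.752 and 1.13), 0.698 for Ndufa3 (0.779 and 1.11), 0.712 for Atp5mpl (0.839 and 1.18) and 0.765 for Atp5e (0.889 and 1.16). It was 1.34 for Cycs (1.12 and 0.841), 1.25 for Cox5a (1.11 and 0.892), 1.23 for Cyc1 (1.08 and 0.874) and 1.2 for Ndufs7 (1.12 and 0.93). The first 4 have median coding transcripts under 500 bases. For Cycs the saline log2 ratio was 0.29 in cells called female and -0.62 in those called male, for Cox5a 0.13 and -0.43, for Cyc1 0.10 and -0.49 and for Ndufs7 0.06 and -0.19. All 4 thus lay above 0 in cells called female.

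Barcodes that carried macrophage markers but failed the mitochondrial limit were outside the comparisons and still held nuclear subunit UMIs. They summed to 6670 CPM in the carboplatin AngII/PE library (742 barcodes), 6151 CPM in the PBS AngII/PE library (741), 5707 CPM in the carboplatin saline library (288) and 5173 CPM in the PBS saline library (185). Both AngII/PE libraries were higher there as well.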

How the results depend on the processing

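The AngII/PE over saline ratio of the summed nuclear subunits stayed above 1 under every alternative run, after carboplatin and after PBS. It was smallest where the macrophage subsets were equalised. With the subset mix held equal, an alternative chosen after seeing the data, it was 1.07 after carboplatin and 1.06 after PBS, and in resident-like cells alone 1.10 and 1.08. With a per-cell marker gate in place of clusters it was 1.29 and 1.21, and with that gate and a mitochondrial limit of 20% it was 1.32 and 1.18. With the unnamed macrophage-marked clusters it was 1.31 and 1.25, with the rRNA-led cluster, added after seeing the data, 1.26 and 1.23, under 20000 UMIs per cell 1.24 and 1.23, with a mitochondrial limit of 5% 1.22 and 1.23, with the cardiomyocyte-like profile subtracted 1.24 and 1.26, and in female-called cells 1.18 and 1.21. After carboplatin alone it moved beyond counting error to 1.29 in male-called cells, to 1.22 without mitochondrial genes in the total, to 1.22 as a mean of per-cell CPM and to 1.2 with median-of-ratios size factors. After PBS alone it moved to 1.28 without mitochondrial and ribosomal protein genes in the total, a scaling chosen after seeing the data.

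The carboplatin over PBS ratio lay on both sides of 1 across alternatives. Under AngII/PE and under saline it was 0.996 and 1.04 without mitochondrial and ribosomal protein genes, 1.02 and 1.04 in female-called cells, 1.01 and 0.973 in male-called cells, 1.05 and 0.978 with the marker gate, 1.07 and 0.956 with the gate and a limit of 20%, 1.03 and 1.00 with the rRNA-led cluster, 1.02 and 1.00 in resident-like cells, 0.995 and 0.997 at an equal subset mix, 1.01 and 1.00 under 20000 UMIs, and 1.04 and 0.991 with the unnamed clusters. Under saline it was 1.02 without mitochondrial genes, 1.02 with the cardiomyocyte-like profile subtracted, 1.02 as a mean of per-cell CPM and 1.04 with median-of-ratios size factors.

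Counts of subunits at least 1.2-fold higher under AngII/PE, 51 after carboplatin and 41 after PBS, were 19 and 16 in resident-like cells and 19 and 13 at an equal mix. Those at least 1.2-fold lower, 0 and 1, were 5 and 4 in resident-like cells, 4 and 5 at an equal mix and 3 and 4 with a minimum of 1 CPM. After PBS they were 0 with the cardiomyocyte-like profile subtracted, with median-of-ratios size factors, with a minimum of 50 CPM, with a mitochondrial limit of 5% and with the marker gate. For carboplatin over PBS under AngII/PE the higher count, 1, was 14 in resident-like cells, where the carboplatin library had 43 cells, 6 and 4 with and without the 20% limit in the marker gate, 3 in female-called cells and with the unnamed clusters, 2 in male-called cells, and 0 at an equal mix and without mitochondrial and ribosomal protein genes. The lower count, 3, was 11 in resident-like cells and 5 with a minimum of 1 CPM. Under saline the higher count, 0, was 2 in each called sex, with median-of-ratios size factors and without mitochondrial and ribosomal protein genes, and 1 as a mean of per-cell CPM, with a mitochondrial limit of 5% and with the marker gate. The lower count, 1, was 13 in male-called cells, 6 with the gate and a limit of 20%, 3 as a mean of per-cell CPM and under 20000 UMIs, and 2 with a minimum of 1 CPM, with the gate, with the rRNA-led cluster, at an equal mix and with the unnamed clusters. It was 0 with the cardiomyocyte-like profile subtracted, with median-of-ratios size factors, with a minimum of 50 CPM and with a mitochondrial limit of 5%. These counts stand here without the shares of all genes at the same settings, so they are not read as an excess or a deficit of subunits. Those in resident-like cells rest on 43 and 81 AngII/PE cells after carboplatin and PBS. The causes of these changes in count were not tested.

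No paired analysis was possible because each group has 1 library, and for the same reason leaving out a replicate could not be done. Intervals cover counting error, so a difference of a few percent between libraries cannot be set against variation between mice.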

Other observations

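The composition of the c subunit pool differed by cell class and, in several classes, between AngII/PE and saline libraries. In endothelial-like cells Atp5g2 gave 53.3% and 51.9% of the c subunit UMIs in the carboplatin and PBS AngII/PE libraries, against 47.3% and 47.7% in the carboplatin and PBS saline libraries. In fibroblast-like cells it gave 51.6% and 45.2%, against 44.6% and 39.1%. In cardiomyocyte-like cells it gave 38.0% and 34.4%, against 21.6% and 22.8%. In cDC2-like cells it gave 55.1% and 59.8%, against 50.0% and 55.5%. In each of these classes the share was higher under AngII/PE after carboplatin and after PBS. Cycling cells did not follow this, with 57.8% and 55.8% under AngII/PE, against 56.1% and 65.6% under saline. B cell-like cells had 62.6% and 58.4%, against 56.6% and 52.8%. Muscle RNA also differed, as Cox6a2 gave 18.7% and 23.4% of its pair in endothelial-like cells of the carboplatin and PBS saline libraries. Under AngII/PE it gave 4.20% and 4.49% there. In cardiomyocyte-like cells the summed cardiomyocyte markers were lower under AngII/PE. The part of RNA from other cells in these c subunit shares was not tested.

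Cox6b2, an isoform of complex IV known from testis, gave 12.5% and 13.5% of the UMIs of the Cox6b1 and Cox6b2 pair in fibroblast-like cells of the carboplatin and PBS AngII/PE libraries (43 and 50 UMIs), against 2.10% and 2.84% in those of the carboplatin and PBS saline libraries (7 and 8 UMIs). It was found in 17.7% and 17.2% of these cells under AngII/PE and in 3.30% and 5.95% under saline, where the carboplatin saline cells were much shallower, at a median of 3385 UMIs against 15783 to 17626 in the other 3 libraries. Macrophage-like cells held a Cox6b2 UMI in 4.40%, 6.10%, 6.43% and 8.84% of cells in the order carboplatin AngII/PE, PBS AngII/PE, carboplatin saline and PBS saline, so the saline fibroblast-like shares lie at or below that level.

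Cycling cells held 17107 and 17899 CPM of nuclear subunits in the carboplatin and PBS AngII/PE libraries, against 11578 and 11912 CPM in the carboplatin and PBS saline libraries, from 116, 40, 35 and 26 cells. Both AngII/PE libraries were higher than any macrophage subset of the same library.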
